A study of Arabidopsis thaliana with 305 samples.

Results

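The genes described here are 43 nucleotide-binding leucine-rich repeat receptor (NLR) and Toll/interleukin-1 receptor (TIR) domain genes of Arabidopsis thaliana, taken by their locus identifiers from a table of 25320 genes. They are genes with a published name or a known link to defence, other than the helper NLRs removed in the mutants and the receptors of the 3 effectors delivered. By class, 26 are TIR-NLR genes, 9 are short TIR genes that lack the leucine-rich repeat part, and 8 are coiled-coil (CC) NLR genes. All 43 had enough reads to be tested.

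Leaf discs of 6-week-old plants grown under short days were sequenced before infiltration (T0) and 0.5, 4 and 8 h after infiltration with Pseudomonas fluorescens Pf0-1. In the control strain the vector was empty (EV). The remaining strains delivered AvrRps4, AvrRpt2 or AvrRpm1, effectors recognised by other receptors of the plant. No group was infiltrated without bacteria. EV against T0 therefore cannot separate the bacterium from the act of infiltration or from the hour of sampling, and their parts were not tested. The 4 genotypes were wild-type Col-0, the double mutant nrg1.1 nrg1.2 (nrg1 below), the adr1 triple mutant (adr1), and a line labelled helperless, whose alleles the labels do not list. The labels name ADR1, ADR1-L1, ADR1-L2, NRG1.1 and NRG1.2 as the helper NLR genes. Each of the 52 groups had 3 replicates, and the labels do not say what a replicate number marks, so the p-values measure only the spread between these samples.

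NLR proteins are intracellular immune receptors. TIR-type receptors have enzymatic TIR domains, and their signal runs through EDS1 with PAD4 or SAG101 to the helper NLRs ADR1 and NRG1, whereas CC-type receptors such as ZAR1 can assemble into a membrane channel themselves. Transcripts of many TIR genes are known to increase during defence, and overactive alleles such as those of SNC1, CHS1 and CHS3 cause stunted, autoimmune plants.

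Total counts per replicate, after adding the libraries of a replicate, ran from 4276389 to 28926563 with a median of 11021790. Counts of ADR1-L1 divided by those of ADR1-L2, a ratio that separates genotypes with and without an intact ADR1 family, lay between 1.15 and 5.56 in 137 infiltrated Col-0 and nrg1 libraries and between 32.64 and 658.97 in 135 infiltrated adr1 and helperless libraries. T0 libraries were not checked, and the ratio cannot tell Col-0 from nrg1 or adr1 from helperless. The ratio went against the label, by a limit of 10, in 10 libraries. These were both libraries of replicate 3 of Col-0, adr1 and helperless with EV at 8 h, both of replicate 2 of adr1 with AvrRpm1 at 8 h, and 1 library each of replicate 3 of nrg1 with EV at 8 h and of nrg1 with AvrRpm1 at 4 h. Comparisons with EV at 8 h therefore rest in part on libraries that go against their labels. Most of the counts that use EV at 8 h are given with and without those libraries. In the leaf discs the summed level of 4 mesophyll markers had a median in Col-0 of 62300 CPM (counts scaled to the normalised library size) at T0, 64800 at 0.5 h, 12400 at 4 h and 3500 at 8 h with EV. In bulk tissue, fewer cells of a type and less RNA per cell cannot be told apart, and the part of this decline in the results was not tested.

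Positions and the 250 bases upstream of the annotated starts were read from the RefSeq TAIR10.1 assembly. The windows of 5 members are shown because these genes are the clearest cases of the patterns described below. They are RMG1, low before infiltration and high with the effectors; AT1G66090 and AT4G14370, with large early rises; TAO1, which fell; and ZAR1, a CC-NLR gene that rose with EV and was not called with an effector in Col-0. Capitals mark TTGAC or its reverse complement GTCAA, the core of the W-box bound by WRKY factors. RMG1 is shown from chr4:6810853-6811102 on the plus strand, AT1G66090 from chr1:24601783-24602032 on the plus strand, AT4G14370 from chr4:8283536-8283785 on the minus strand, TAO1 from chr5:17934223-17934472 on the minus strand and ZAR1 from chr3:18935424-18935673 on the plus strand.
RMG1: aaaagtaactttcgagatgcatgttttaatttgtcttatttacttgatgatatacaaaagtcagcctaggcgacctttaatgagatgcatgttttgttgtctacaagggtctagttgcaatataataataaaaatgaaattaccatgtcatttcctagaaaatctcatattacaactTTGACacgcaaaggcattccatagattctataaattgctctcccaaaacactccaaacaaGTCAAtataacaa
AT1G66090: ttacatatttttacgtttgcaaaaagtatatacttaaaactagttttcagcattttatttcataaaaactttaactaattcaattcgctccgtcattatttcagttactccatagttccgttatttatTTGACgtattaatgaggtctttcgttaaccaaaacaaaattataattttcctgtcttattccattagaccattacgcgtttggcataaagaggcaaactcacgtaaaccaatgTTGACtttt
AT4G14370: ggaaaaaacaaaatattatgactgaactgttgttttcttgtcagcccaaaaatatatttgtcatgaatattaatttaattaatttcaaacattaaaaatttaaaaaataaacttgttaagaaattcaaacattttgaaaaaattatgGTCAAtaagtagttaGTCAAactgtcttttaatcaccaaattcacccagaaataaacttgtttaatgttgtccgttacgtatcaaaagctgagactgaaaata
TAO1: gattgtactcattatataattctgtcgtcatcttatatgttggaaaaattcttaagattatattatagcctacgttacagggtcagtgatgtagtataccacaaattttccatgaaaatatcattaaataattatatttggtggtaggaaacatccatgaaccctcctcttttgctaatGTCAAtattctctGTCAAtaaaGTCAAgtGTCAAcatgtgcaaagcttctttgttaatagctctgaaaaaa
ZAR1: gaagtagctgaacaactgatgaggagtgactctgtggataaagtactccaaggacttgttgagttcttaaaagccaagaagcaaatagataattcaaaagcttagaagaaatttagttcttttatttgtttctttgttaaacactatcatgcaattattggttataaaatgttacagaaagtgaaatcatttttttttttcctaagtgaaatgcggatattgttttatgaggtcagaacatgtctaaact

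The core was found 4 times upstream of TAO1, which fell after infiltration, and 2 times upstream each of RMG1, AT1G66090 and AT4G14370, which rose. The ZAR1 window held none. At least 1 match was present in 20 of the 43 windows, against 44.9% of 27438 windows of all genes, and at least 2 matches were present in 8 of the 43, against 14.1%. By class the core was present in 13 of 26 TIR-NLR, 4 of 9 short TIR and 3 of 8 CC-NLR windows. Of the other motifs searched on both strands, TGACG, the core bound by TGA factors, was in 12 of the 43 windows against 18.6% of all, and the G-box CACGTG was in 1 of 43 against 6.49%. TTGAC and TGACG can overlap when they follow each other as TTGACG. The members' upstream windows thus held the W-box core about as often as those of other genes.

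Before infiltration the members differed widely in level. Per kilobase of exon, the mean T0 level in Col-0 was 110.0 CPM for RLM3, a short TIR gene needed for resistance to the fungus Leptosphaeria maculans, 69.9 CPM for the CC-NLR gene AT1G58602, 68.9 CPM for the short gene TIR, 48.2 CPM for ZAR1 and 35.5 CPM for SNC1. At the other end were RMG1 at 0.0826 CPM, RLM1, also linked to Leptosphaeria resistance, at 0.0226 CPM, and AT1G17615, with no read in the 3 T0 replicates. The class medians of the level per kilobase at T0 were 10.4 CPM for TIR-NLR, 3.68 CPM for short TIR and 9.71 CPM for CC-NLR genes. With EV at 0.5 h they were 22.8, 45.8 and 23.2 CPM, and with EV at 4 h 13.1, 12.3 and 6.61 CPM. At that early time AT1G66090 stood at 887.0 CPM per kilobase and ZAR1 at 677.0 CPM per kilobase, the highest levels among the members.

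Most TIR genes were higher 0.5 h after infiltration with the EV strain than at T0. A gene is called changed where the Benjamini-Hochberg adjusted p of edgeR's quasi-likelihood test, over 19687 genes, was under 0.05 and the log2 fold change was at least 1 in size; all adjusted p-values below are from this test. In Col-0 at 0.5 h against T0, 23 of 35 TIR genes rose, and 0 fell by edgeR or DESeq2, although CSA1 and AT4G19500 were lower at an unadjusted p under 0.05 without reaching the fold limit. Of the 8 CC-NLR genes 3 rose, namely ZAR1, LOV1 and RPP13, and SUMM2 fell. Over all genes tested, 14.0% rose and 8.6% fell. The median log2 fold change was 1.5 in the TIR-NLR class, 2.31 over the 8 short TIR genes other than AT1G17615, which had at most 2 counts in each group, and 0.61 in the CC-NLR class, beside -0.03 over all genes. None of the 10 libraries that go against their labels is in the EV group at 0.5 h, and T0 libraries were not checked. With the 10 libraries left out of the shared fit 21 TIR and 2 CC-NLR genes rose, as AT2G14080, RPP1 and LOV1 were no longer called.

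**Figure D1:**
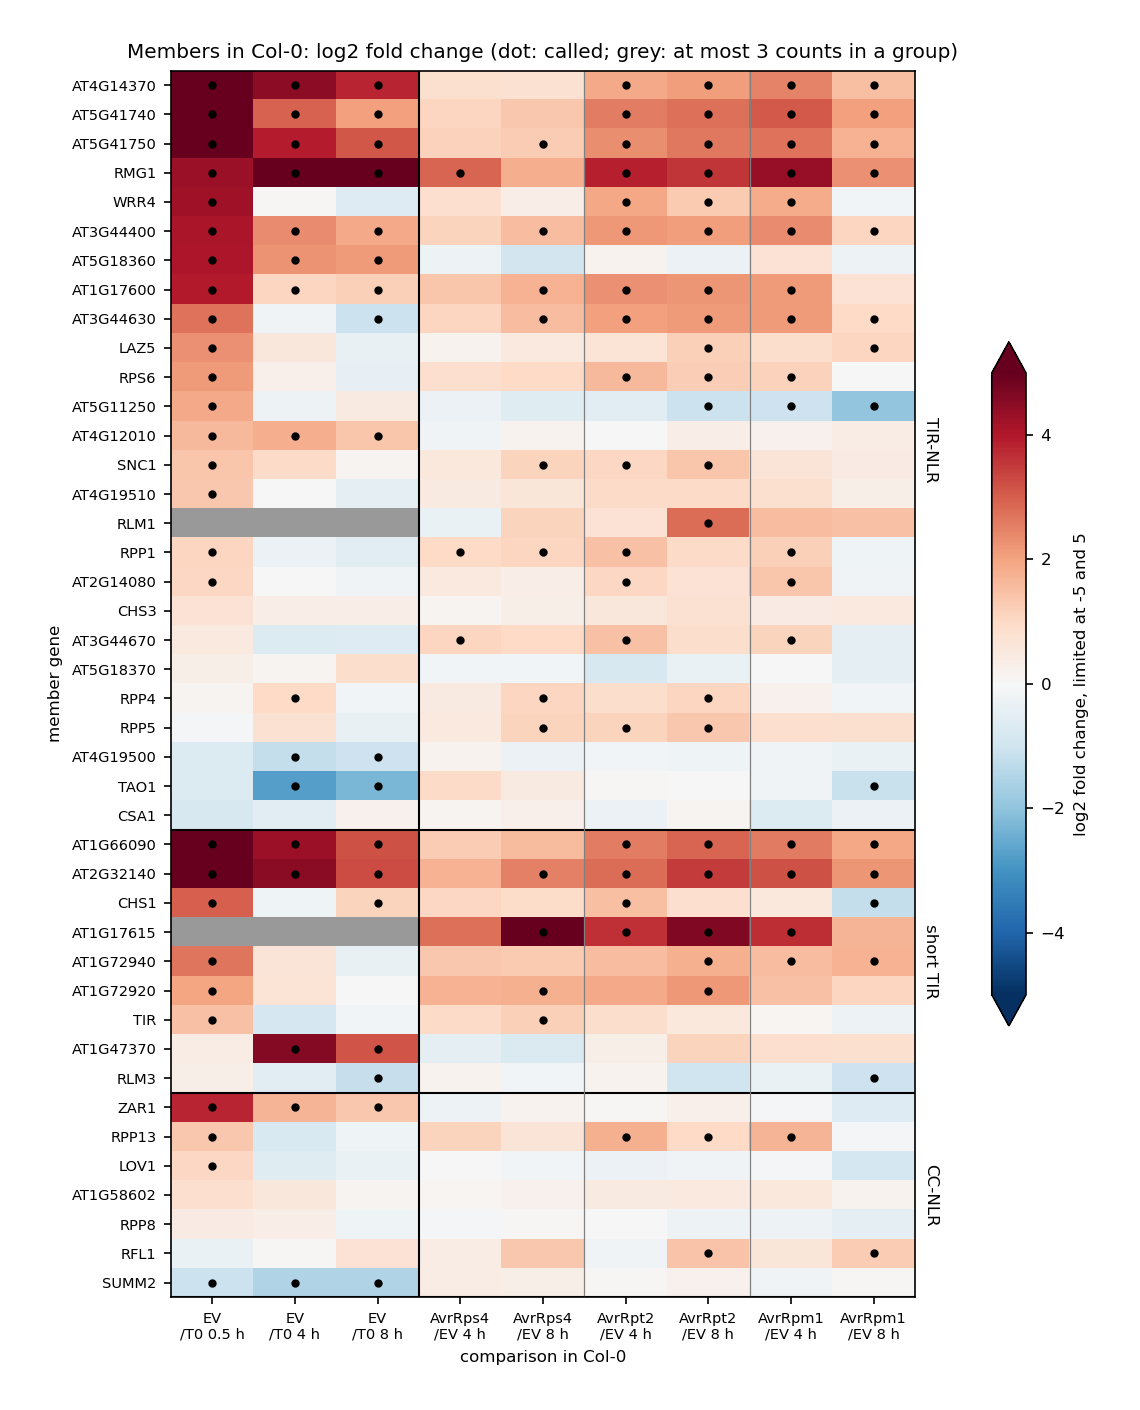
Log2 fold change of 42 members (rows, by class) in Col-0 for EV against T0 and for each effector against EV (columns); dots mark called changes and grey cells groups with at most 3 counts. The block of early rises covers 23 TIR genes and 3 CC-NLR genes. The effector columns at 4 h show 3 called rises for AvrRps4 and 19 for AvrRpt2. For AvrRpm1 they show 18 called changes, of which the change of AT5G11250 is a fall.

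The largest early rises were in TIR genes that have no name in the annotation used. AT4G14370, a TIR-NLR gene at chromosome 4, 8279634 to 8283535, had 3.27, 2.09 and 3.65 CPM at T0 and 390, 383 and 329 CPM at 0.5 h. The lowest value after infiltration was far above the highest before it, a log2 fold change of 6.93 ± 0.53 (standard error here and below; n = 3 per group, edgeR adjusted p = 1.5e-20). The short TIR gene AT1G66090 went from 15.8, 5.6 and 16 CPM to 1270, 1990 and 1170 CPM (6.89 ± 0.71, edgeR adjusted p = 1.27e-14). AT2G32140, another short TIR gene, went from 1.81, 0.43 and 0.645 CPM to 135, 109 and 84.9 CPM (6.83 ± 0.64, edgeR adjusted p = 1.56e-16). In each of these genes the groups were fully separate. The neighbours AT5G41740 and AT5G41750 also rose, by 5.83 ± 0.57 and 5.76 ± 0.5 on the log2 scale.

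Named members shared the early rise. WRR4, a TIR-NLR that confers resistance to white rust, had 53.5, 59.3 and 51.8 CPM at T0, 1010, 1100 and 972 CPM at 0.5 h, and 63.1, 34.6 and 73.5 CPM at 4 h. Its rise of 4.22 ± 0.38 (edgeR adjusted p = 1.28e-17) was over by 4 h, when it differed from T0 by 0.05 (edgeR adjusted p = 0.894). ZAR1, the CC-NLR of the ZAR1 resistosome, had 153, 125 and 142 CPM at T0, 2090, 2060 and 1750 CPM at 0.5 h, and 495, 379 and 487 CPM at 4 h. It was the only CC-NLR gene still called higher at 4 h (1.69 ± 0.25, edgeR adjusted p = 1.51e-08). SNC1, whose gain-of-function allele gives constitutive defence, had 194, 154 and 197 CPM at T0 and 607, 441 and 358 CPM at 0.5 h, again without overlap (1.37 ± 0.26, edgeR adjusted p = 1.08e-05). LAZ5, linked to cell death in acd11 plants, rose by 2.28 and RPS6, the receptor for HopA1, by 2.14 on the log2 scale.

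Most of these rises had subsided by 4 h. In the Col-0 course with EV, 29 of the 43 members had their highest mean at 0.5 h, 24 of them TIR genes and 5 CC-NLR genes, while 3 were highest at T0, 5 at 4 h and 6 at 8 h. The same count over all genes was not made, so whether this timing is particular to the members was not tested. In a comparison added after the data were seen, EV at 4 h against EV at 0.5 h, 21 TIR genes and the CC-NLR genes LOV1, RPP13 and ZAR1 fell (24.6% of all genes fell), and AT1G47370 and RMG1 rose (17.0% of all genes rose). Against T0, 12 TIR genes and ZAR1 were higher at 4 h (23.1% of all genes were) and 3 members were lower (25.7% of all genes were). At 8 h 13 TIR genes and 1 CC-NLR gene were higher against 19.1% of all genes, and 4 TIR genes and 1 CC-NLR gene were lower against 22.5%. The numbers at 8 h without the 10 libraries were 13 and 1 higher and 3 and 1 lower.

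A few members followed another course. RMG1, a TIR-NLR gene named for its methylated promoter region, had 0.145, 0.369 and 0.358 CPM at T0 and 6.13, 4.02 and 7.95 CPM at 0.5 h. It then reached 96.1, 26 and 61.5 CPM at 4 h (7.65 ± 0.95 over T0, edgeR adjusted p = 4.09e-11) and 95.2, 23 and 77.3 CPM at 8 h. The short TIR gene AT1G47370 did not move at 0.5 h (1.06, 0.482 and 0.663 CPM against 0.726, 0.369 and 0.573 CPM at T0; edgeR adjusted p = 0.775). At 4 h it had 20.8, 10.3 and 9.16 CPM, all above every T0 value (4.58 ± 0.69, edgeR adjusted p = 1.81e-08). Both genes rose between 0.5 h and 4 h, RMG1 after a called rise at 0.5 h (4.3 ± 0.9 over T0, edgeR adjusted p = 5.01e-05). AT1G17615 had 0 counts at T0, and against a floor of 3 counts over the group it was at least 1.89-fold higher at 4 h and at least 3.34-fold higher at 8 h.

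Lower levels were the exception. TAO1, a TIR-NLR gene that contributes to the response to AvrB, had 38.7, 47.7 and 36.8 CPM at T0, 29.6, 30.3 and 17.4 CPM at 0.5 h and 5.99, 6.56 and 5.62 CPM at 4 h. The 4 h values lay below every T0 value (-2.76 ± 0.4, edgeR adjusted p = 6.2e-09), and TAO1 remained lower at 8 h (-2.28 ± 0.39, edgeR adjusted p = 5.16e-07). SUMM2, the CC-NLR that monitors the MEKK1-MKK1/MKK2-MPK4 cascade, had 7.84, 10.3 and 13.9 CPM at T0 and 4.86, 6.83 and 3.45 CPM at 0.5 h. It was lower at 0.5 h (-1.07 ± 0.31, edgeR adjusted p = 0.00408) and at 4 h (-1.5 ± 0.31, edgeR adjusted p = 1.96e-05), with no overlap between groups. RLM3 fell later, from 451, 518 and 385 CPM at T0 to 174, 231 and 210 CPM at 8 h (-1.14 ± 0.28, edgeR adjusted p = 0.000383).

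**Figure D2:**
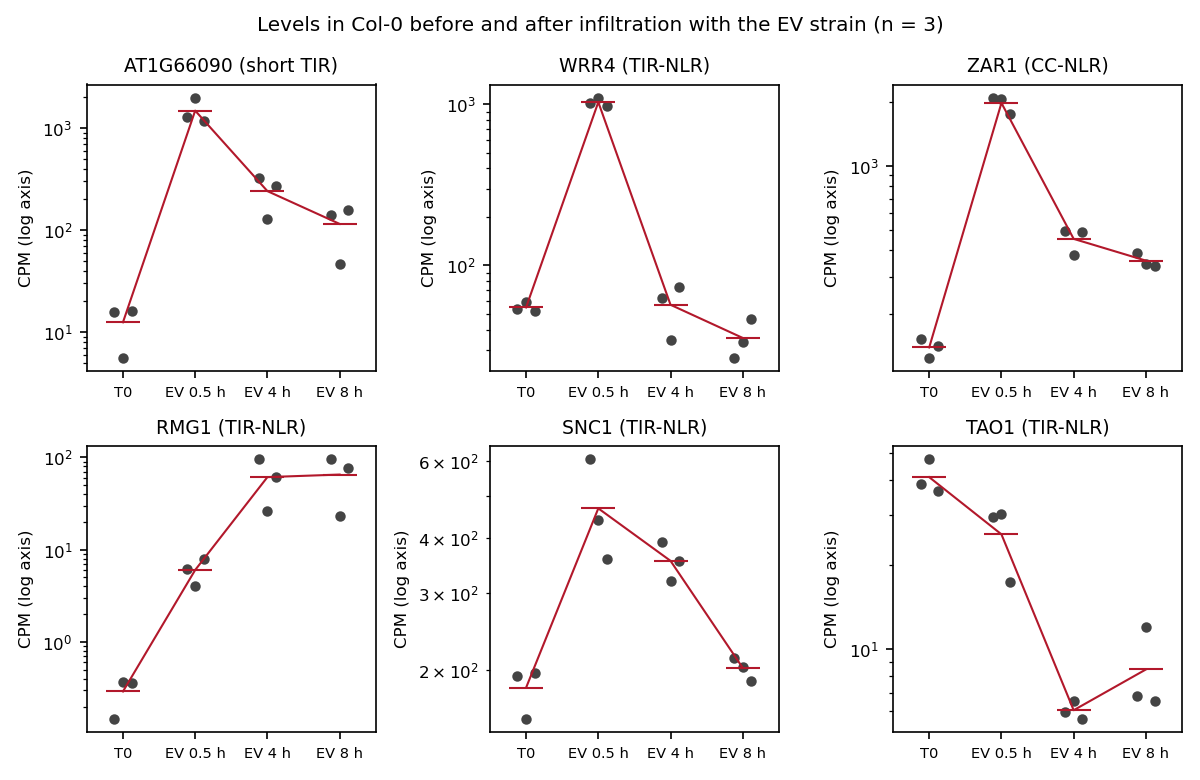
CPM (log axis) of 6 members in Col-0 at T0 and 0.5, 4 and 8 h after infiltration with the EV strain; points are the 3 replicates of each group. AT1G66090, WRR4 and ZAR1 peak at 0.5 h, RMG1 is highest at 4 and 8 h, and TAO1 declines.

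The early response was also seen in the helper mutants. At 0.5 h against T0, 23 TIR and 3 CC-NLR genes rose in nrg1 (13.8% of all genes rose), 21 and 2 in adr1 (12.3%), and 23 and 3 in helperless (12.4%). CSA1 fell in nrg1 (6.71% of all genes fell), CSA1 and SUMM2 fell in adr1 (5.3%), and SUMM2 fell in helperless (5.57%). In helperless plants AT4G14370 had 4.9, 2 and 5.67 CPM at T0 and 346, 406 and 370 CPM at 0.5 h, and ZAR1 had 136, 129 and 119 CPM and then 1590, 1870 and 1800 CPM. These values are close to those of Col-0. The log2 fold changes of ZAR1 were 3.66, 3.54 and 3.78 in nrg1, adr1 and helperless. TAO1 at 4 h had log2 differences of -2.72, -2.8 and -2.35, and RMG1 at 4 h was higher by 7.76, 6.98 and 7.16.

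At T0 and with EV, 0 members differed between a mutant and Col-0 by edgeR at any time. At an unadjusted p under 0.05 the number was 7 for adr1 at T0 and 0 to 2 elsewhere. At 8 h with EV replicate 3 of each of the 4 genotypes holds libraries that go against their labels. With those libraries left out 0 members differed there by edgeR, with 0, 0 and 1 at an unadjusted p under 0.05 in nrg1, adr1 and helperless. With the replicate number as a block the counts at T0 and at 4 h with EV were also 0. DESeq2 also called 0 members at T0 and with EV at 4 h, where it was run.

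At 0.5 h no effector had moved a member against EV: 0 members were called by edgeR in each genotype, with 0 to 5 at an unadjusted p under 0.05, and at most 0.0102% of all genes were called in either direction. The effector responses of the members therefore belong to the 4 h and 8 h samples.

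At 4 h in Col-0, AvrRpt2 and AvrRpm1 raised TIR genes again, whereas the CC-NLR class stayed near EV apart from RPP13. With AvrRpt2, 18 TIR genes and RPP13 rose and 0 members fell by edgeR or DESeq2 (2.31% of all genes rose and 0.0254% fell), and with AvrRpm1 16 TIR genes and RPP13 rose (8.06%), while the TIR-NLR gene AT5G11250 fell (1.8%). The median log2 fold change against EV was 1.11 in the TIR genes for each of these effectors, and 0.02 and -0.08 in the CC-NLR genes, beside -0.03 and 0.05 over all genes tested. Of the 43 members, 20 rose with at least 1 effector at 4 h, 19 of them TIR genes; of all genes tested 8.42% did. Without replicate 2 the AvrRpt2 count fell from 19 to 0 members, and no other replicate moved it below 16.

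RMG1 had the largest rise. Against 96.1, 26 and 61.5 CPM with EV it had 1060, 959 and 700 CPM with AvrRpt2 and 1660, 958 and 1100 CPM with AvrRpm1. Every effector value was above every EV value (3.89 ± 0.73, edgeR adjusted p = 0.000171, and 4.34 ± 0.75, edgeR adjusted p = 1.97e-05). AT2G32140 had 28.8, 12.5 and 24.6 CPM with EV, 151, 181 and 121 CPM with AvrRpt2 and 238, 181 and 185 CPM with AvrRpm1. Its groups were also separate (2.79 ± 0.51, edgeR adjusted p = 0.000102, and 3.2 ± 0.52, edgeR adjusted p = 5.35e-06).

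AT1G66090 returned to the level of its early peak, from 323, 129 and 271 CPM with EV to 1780, 1440 and 1080 CPM with AvrRpt2 and 1890, 1340 and 1150 CPM with AvrRpm1. Its rise with AvrRpt2 was 2.57 ± 0.58 on the log2 scale (edgeR adjusted p = 0.00245). AT5G41740 had 238, 110 and 217 CPM with EV and 1960, 1450 and 1280 CPM with AvrRpm1 (3.05 ± 0.5, edgeR adjusted p = 6.46e-06). AT5G41750 went from 255, 109 and 238 CPM to 1640, 1150 and 1160 CPM. In both neighbours the groups did not overlap. WRR4 rose by 1.93 with AvrRpt2 and 1.86 with AvrRpm1, AT4G14370 by 1.89 and 2.48, and AT1G17615, from 5 counts over the EV replicates, by 3.67 ± 0.94 and 3.69 ± 0.95.

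Among the CC-NLR genes RPP13, which recognises downy mildew, had 25.9, 25.7 and 34.6 CPM with EV, 98.4, 105 and 89.4 CPM with AvrRpt2 and 147, 56.6 and 77.9 CPM with AvrRpm1. All effector values exceeded the EV values (1.76 ± 0.31, edgeR adjusted p = 4.47e-05, and 1.71 ± 0.31, edgeR adjusted p = 4.39e-05). Of its exon bases 33.0% are shared with AT3G46520 on the other strand, and the strand setting of the counting is not given in the sources used here. ZAR1, in contrast to its early rise, had 565, 400 and 445 CPM with AvrRpt2 against 495, 379 and 487 CPM with EV, an overlap of the groups (0.05 ± 0.25). SNC1 rose with AvrRpt2, from 393, 319 and 354 CPM to 790, 695 and 685 CPM (1.03, edgeR adjusted p = 0.00962), and had 0.63 with AvrRpm1 (edgeR adjusted p = 0.0834). AT5G11250 had 20, 13 and 14.4 CPM with EV and 8.89, 8.73 and 5.32 CPM with AvrRpm1 (-1.04 ± 0.32, edgeR adjusted p = 0.0168).

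**Figure D3:**
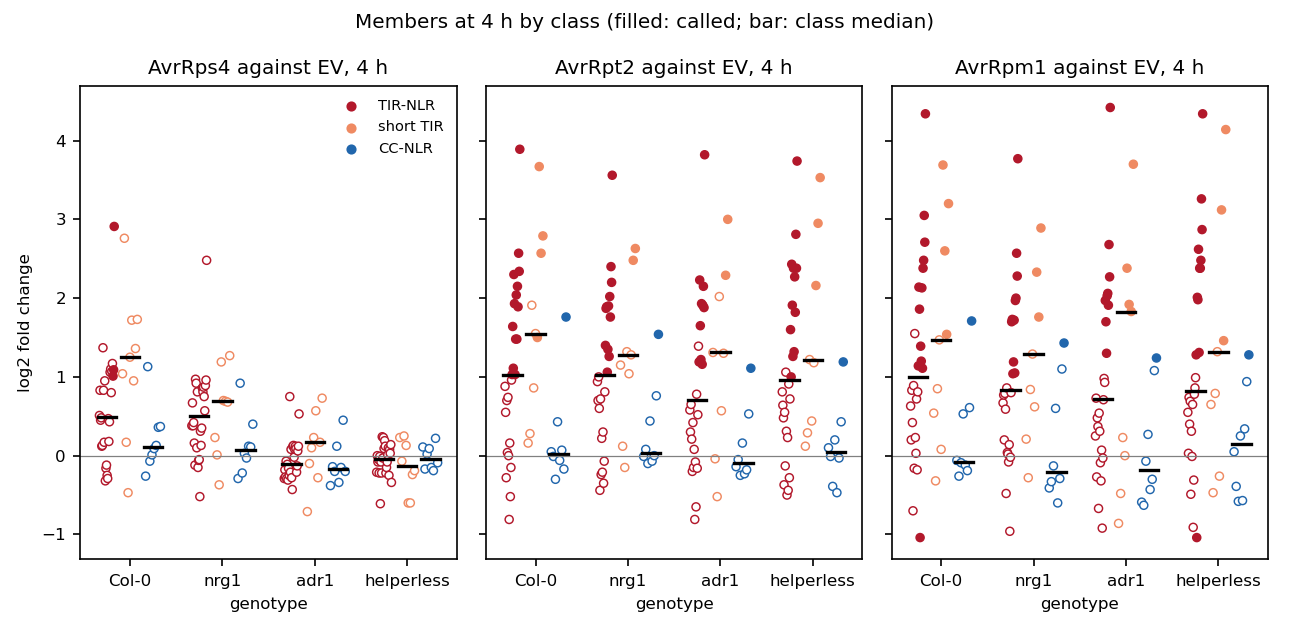
Log2 fold change of each member for AvrRps4, AvrRpt2 and AvrRpm1 against EV at 4 h (panels) in the 4 genotypes, coloured by class; filled points are called and bars are class medians. TIR points extend upward with AvrRpt2 and AvrRpm1 in each genotype, and with AvrRps4 the TIR median is 0.83 in Col-0 and -0.06 in helperless.

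AvrRps4 gave fewer calls in Col-0 at 4 h and more spread between replicates. RMG1, AT3G44670 and RPP1 rose, 3 of 43 members against 0.528% of all genes, and 22 members had an unadjusted p under 0.05. The share of all genes at that unadjusted limit is not given here. The median log2 fold change was 0.83 in the TIR genes and 0.11 in the CC-NLR genes, the latter equal to the 0.11 over all genes. RMG1 had 93.7, 944 and 339 CPM, of which replicate 1 lay within the EV range (2.91 ± 0.7, edgeR adjusted p = 0.0202). RPP1, a downy mildew receptor, had 76.5, 221 and 127 CPM against 70.3, 60.7 and 79.4 CPM with EV (1.01 ± 0.23, edgeR adjusted p = 0.0115), and AT3G44670 had 62.8, 140 and 79 CPM against 44.4, 37.2 and 50.7 CPM (1.09 ± 0.24, edgeR adjusted p = 0.0058). RPP1 overlapped EV in replicate 1 and AT3G44670 did not overlap. The count was 5 without replicate 1, 0 without replicate 2, and 1 by DESeq2. Only 55.7% of the 50-base windows in RPP1 exons and 63.4% of those in AT3G44670 exons occur once in the genome, so reads may be split with near copies. The summed mesophyll markers had a median of 16400 CPM with AvrRps4, 6080 CPM with AvrRpt2 and 11000 CPM with AvrRpm1, beside 12400 CPM with EV, and their part in these differences was not tested.

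Tested directly in comparisons added after the data were seen, 0 members differed between AvrRps4 and AvrRpt2 in Col-0 by edgeR at 4 h or 8 h. At an unadjusted p under 0.05, 18 and 11 members did, with lowest adjusted p-values of 0.16 and 0.128. The share of all genes at that unadjusted limit is not given here. Between AvrRpm1 and AvrRpt2 at 4 h, 0 members were called by edgeR in Col-0, nrg1 or helperless (3, 3 and 4 unadjusted), and CHS1 was lower with AvrRpm1 in adr1 (-2.17, edgeR adjusted p = 0.0157; 0.00508% of all genes were lower). Replicate 3 of nrg1 with AvrRpm1 at 4 h holds 1 library that goes against its label. At 8 h in Col-0 11 TIR genes and 1 CC-NLR gene were lower with AvrRpm1 than with AvrRpt2, against 4.7% of all genes. Among these members were RPP1, RPP13, RPS6, TAO1 and WRR4.

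By 8 h the 3 effectors had raised different numbers of members in Col-0. With AvrRps4 12 TIR genes rose (3.5% of all genes rose), with AvrRpt2 19 TIR genes and the CC-NLR genes RFL1 and RPP13 (9.67%), and with AvrRpm1 10 TIR genes and RFL1 (16.6%). AT5G11250 fell with AvrRpt2 (4.26% of all genes fell), and AT5G11250, CHS1, RLM3 and TAO1 fell with AvrRpm1 (11.6%). Median changes of the TIR genes were 0.98, 1.18 and 0.42, and of the CC-NLR genes 0.19, 0.23 and -0.27. Replicate 3 of the EV group is 1 of those that go against their label. Without the 10 libraries 6 TIR genes rose with AvrRps4, 18 with AvrRpt2 and 10 with AvrRpm1, and the rises of RFL1 and RPP13 were no longer called. Without replicate 2 the counts of called members were 4 for AvrRps4 and 7 for AvrRpm1, without replicate 1 they were 15 and 9, and without replicate 3 they were 4 and 15.

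AT2G32140 with AvrRps4 at 8 h had 44.9, 41.5 and 71.7 CPM against 9.6, 6.01 and 11.9 CPM with EV (2.52 ± 0.51, edgeR adjusted p = 0.000255), and SNC1 had 365, 474 and 475 CPM against 213, 203 and 189 CPM (1.12 ± 0.26, edgeR adjusted p = 0.00207). Neither gene overlapped between groups. AT5G11250 with AvrRpm1 had 3.92, 10 and 5.66 CPM against 23.8, 29.9 and 23.6 CPM with EV (-1.98 ± 0.33, edgeR adjusted p = 9.95e-07), the largest fall with an effector in Col-0. RLM3 had 41.2, 157 and 102 CPM against 174, 231 and 210 CPM. Across both times, 17 members rose with no effector in Col-0, 11 of 35 TIR genes and 6 of 8 CC-NLR genes; of all genes tested 78.1% rose with none. The TIR genes were AT1G47370, AT4G12010, AT4G19500, AT4G19510, AT5G11250, AT5G18360, AT5G18370, CHS3, CSA1, RLM3 and TAO1, and the CC-NLR genes included AT1G58602, LOV1, RPP8, SUMM2 and ZAR1.

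The members that rose most within 0.5 h of the EV strain tended to be those raised later by AvrRpt2 and AvrRpm1. Across the 41 members with more than 3 counts in each group, the log2 fold change of EV at 0.5 h over T0 had a Pearson correlation of 0.72 in Col-0 and 0.77 in helperless with that of AvrRpt2 over EV at 4 h, and Spearman coefficients of 0.73 and 0.73. For AvrRpm1 the Pearson values were 0.77 and 0.79. For AvrRps4 they were 0.49 in Col-0 and -0.07 in helperless. These comparisons share no samples. The points are genes, which are not independent, and each value describes these libraries only. The correlation over all genes was not computed, so whether the relation is particular to these members was not tested.

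**Figure D4:**
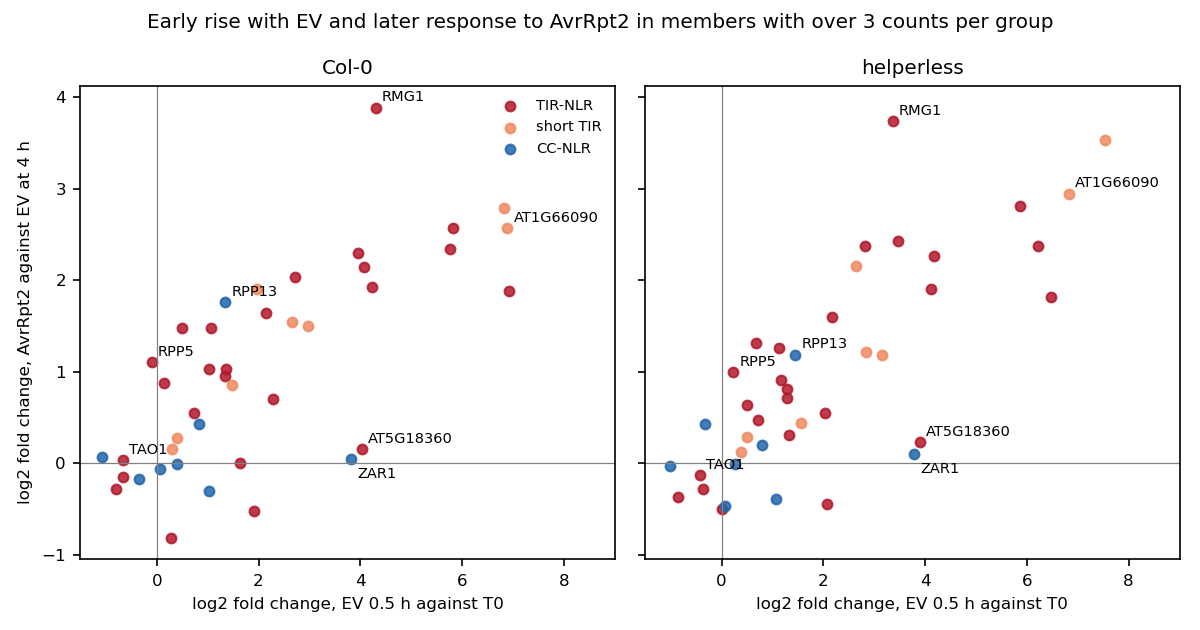
Each point is 1 of 41 members; the x axis is the log2 fold change of EV at 0.5 h over T0 and the y axis that of AvrRpt2 over EV at 4 h, in Col-0 and helperless plants. Points with large early rises lie higher on the y axis in both panels, with Pearson r of 0.72 and 0.77.

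In the mutants, AvrRpt2 and AvrRpm1 raised similar numbers of members at 4 h. With AvrRpt2 16 rose in nrg1 (2.38% of all genes rose and 0.0914% fell), 14 in adr1 (1.23%) and 17 in helperless (2.17%). With AvrRpm1 17 rose in nrg1 (6.54%), 16 in adr1 (5.62%) and 16 in helperless (8.45%). CSA1 fell with AvrRpm1 in helperless, and the share of all genes that fell there is not given here. Without replicate 2 these counts were 1, 2 and 5 for AvrRpt2 and 5, 8 and 10 called members for AvrRpm1; without replicate 3 the AvrRpt2 counts were 8, 4 and 13, and without replicate 1 the AvrRpm1 count was 9 in adr1. In helperless RMG1 had 58.8, 46.1 and 28 CPM with EV, 437, 743 and 599 CPM with AvrRpt2 and 1420, 918 and 349 CPM with AvrRpm1, each above all EV values. Its log2 fold changes were 3.56, 3.82 and 3.74 with AvrRpt2 and 3.77, 4.42 and 4.34 with AvrRpm1 in nrg1, adr1 and helperless. The TIR medians in helperless were 1.06 and 0.86, and the CC-NLR medians 0.05 and 0.15. Replicate 3 of nrg1 with AvrRpm1 at 4 h holds 1 library that goes against its label, and the nrg1 count includes it.

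Against Col-0 under the same bacterium, 0 members differed by edgeR in any mutant with AvrRpt2 or AvrRpm1 at 4 or 8 h, with 0 to 7 members at an unadjusted p under 0.05. Replicate 3 of nrg1 at 4 h and replicate 2 of adr1 at 8 h, both with AvrRpm1, hold libraries that go against their labels. A p that misses the threshold does not show that the genotypes were equal.

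With AvrRps4 the number of members called against EV differed between the mutants at 8 h, which is not itself a test between genotypes. Against EV at 4 h, 0 members were called by edgeR or DESeq2 in nrg1, adr1 or helperless, with 12, 0 and 0 at an unadjusted p under 0.05. In nrg1 4 members were called without replicate 1. At 8 h 7 TIR genes rose in nrg1 (2.65% of all genes rose and 0.345% fell), 3 in adr1 (1.55%) and 0 in helperless by edgeR, with 0 unadjusted. Without the 10 libraries 3 rose in nrg1 and 1 in adr1. AT2G32140 and AT1G17615 were among those that rose in both nrg1 and adr1.

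Compared directly with Col-0 under AvrRps4 at 4 h, 9 TIR genes and RPP13 were lower in adr1 (0.919% of all genes were) and 13 TIR genes and RPP13 were lower in helperless (1.25%). In nrg1 0 were by edgeR, and 0 differed at an unadjusted p under 0.05. RMG1 had 93.7, 944 and 339 CPM in Col-0, 148, 327 and 1000 CPM in nrg1, 24.5, 42.2 and 94.7 CPM in adr1, and 12.4, 50.7 and 41.2 CPM in helperless. Helperless lay below every Col-0 value (-3.72 ± 0.73, edgeR adjusted p = 0.000363), adr1 overlapped Col-0 in 1 replicate by a small margin (-3.09 ± 0.71, edgeR adjusted p = 0.00575), and nrg1 overlapped it. TIR, a short TIR gene at locus AT1G72930, had 47.3, 144 and 57.8 CPM in Col-0, 50.1, 73.8 and 86.6 CPM in nrg1, 19.6, 21.5 and 17.6 CPM in adr1, and 17, 25.6 and 17.5 CPM in helperless. Both adr1 and helperless were below all Col-0 values (-2.08 ± 0.4, edgeR adjusted p = 0.000462, and -2.05 ± 0.4, edgeR adjusted p = 0.000345). RPP1 had 57.8, 68.6 and 65.1 CPM in adr1 and 49.1, 62 and 73.7 CPM in helperless, against 76.5, 221 and 127 CPM in Col-0. The class medians against Col-0 were -0.96 in adr1 and -1.03 in helperless for TIR genes, and -0.05 and -0.06 for CC-NLR genes, of which RPP13 was the only one called. Without replicate 2 the counts fell from 10 and 14 to 0 and 0 members by edgeR. They were also 0 and 0 when only the groups compared were fitted. AT3G44630 in adr1 and RPS6 in helperless were not called without the 10 libraries, although none of these is in the groups compared. The mesophyll markers summed to 10100 to 20600 CPM in Col-0, 9630 to 24900 CPM in adr1 and 9570 to 18800 CPM in helperless, and the root markers to 0.17 to 0.615, 0.31 to 0.991 and 0.951 to 1.18 CPM; their part in the difference was not tested.

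At 8 h with AvrRps4 the difference was largest in helperless, where 19 TIR genes and the CC-NLR gene RFL1 were lower than in Col-0 (6.91% of all genes were). In adr1, AT1G17615 and TIR were lower (0.696%), and in nrg1 0 were by edgeR, with 0 at an unadjusted p under 0.05. The TIR median in helperless was -1.18, that of the short TIR genes -2.14 and that of the CC-NLR genes -0.17. AT2G32140 had 44.9, 41.5 and 71.7 CPM in Col-0, 21.8, 34.2 and 57.2 CPM in nrg1, 22.6, 13.6 and 39.6 CPM in adr1, and 3.73, 8.63 and 2.57 CPM in helperless. Helperless was below all Col-0, nrg1 and adr1 values (-3.43 ± 0.53 against Col-0, edgeR adjusted p = 7.17e-07). SNC1 had 144, 180 and 199 CPM in helperless against 365, 474 and 475 CPM in Col-0, without overlap (-1.33 ± 0.26, edgeR adjusted p = 8.74e-05). ZAR1 did not pass the test at 4 h (0.31, edgeR adjusted p = 0.969) or 8 h (-0.37, edgeR adjusted p = 0.281). RFL1 had 2.15, 1.37 and 4.6 CPM in helperless and 10.1, 9.85 and 10.8 CPM in Col-0 (-1.91 ± 0.52, edgeR adjusted p = 0.00562), but 89.3% of its exon bases are shared with an antisense gene. Without replicate 2 the helperless count was 13 and the adr1 count 0. The summed mesophyll markers had medians of 4140 CPM in Col-0, 4520 in nrg1, 6850 in adr1 and 7240 in helperless. The 2 root markers summed to 0.444 to 0.682 CPM in Col-0, with medians of 0.523 in nrg1 and 1.48 in adr1, and to 1.87 to 14.6 CPM in helperless, above all Col-0 values. The part of these markers in the difference was not tested.

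**Figure D5:**
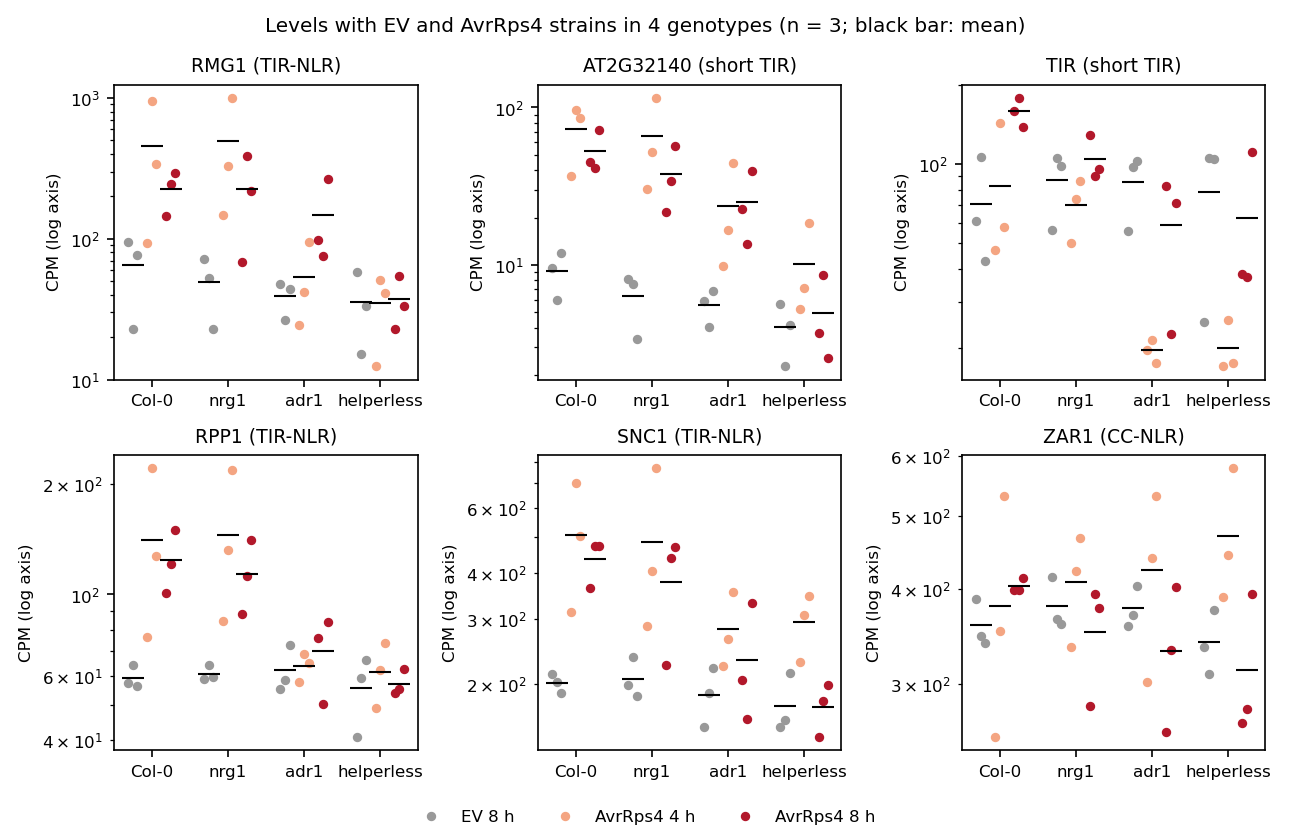
CPM (log axis) of 6 members in the 4 genotypes with EV at 8 h and with AvrRps4 at 4 and 8 h; points are the 3 replicates and black bars their means. With AvrRps4 at 8 h AT2G32140 lies between 2.57 and 8.63 CPM in helperless, below every replicate of the other genotypes, while ZAR1 shows no called difference.

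Between the mutants, in comparisons added after the data were seen, 13 TIR genes and 1 CC-NLR gene were lower in helperless than in nrg1 with AvrRps4 at 4 h (0.98% of all genes were) and 13 TIR genes at 8 h (4.84%). Adr1 was lower than nrg1 in 8 TIR genes and 1 CC-NLR gene at 4 h (0.864%) and in 1 member at 8 h (0.213%). Helperless and adr1 differed in 0 members at 4 h by edgeR, with 1 unadjusted, and in 4 at 8 h, when AT1G17615, AT2G32140, AT5G41740 and AT5G41750 were lower in helperless (1.13%). Without the 10 libraries, none of which is in these groups, 2 of these were called.

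Whether the response to an effector, relative to EV in the same genotype, differed between a mutant and Col-0 was tested as an interaction, and 0 members passed by edgeR. At an unadjusted p under 0.05 the AvrRps4 response differed for 14 members at 4 h and 19 at 8 h in helperless, the latter with a lowest adjusted p of 0.0747, for 12 and 8 in adr1 and for 0 in nrg1. These numbers at 8 h were 11 in helperless, 1 in adr1 and 0 in nrg1 without the 10 libraries. For AvrRpt2 and AvrRpm1 it was 0 to 2 members. The share of all genes at this unadjusted limit is not given here, so these counts are not a result about the members. DESeq2, run on the interactions at 4 h, also called 0.

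The largest number of CC-NLR genes called in 1 effector comparison was 4, in helperless at 8 h with AvrRpm1. There LOV1, RPP8 and ZAR1 were among those lower than with EV, against 16.5% of all genes, and 6 TIR genes were lower while 10 rose against 18.7%. LOV1, which confers sensitivity to the fungal toxin victorin, had 6.79, 10.6 and 11.2 CPM with EV and 3.37, 4.83 and 3.04 CPM with AvrRpm1 (-1.35 ± 0.26, edgeR adjusted p = 1.03e-05). ZAR1 had 335, 309 and 375 CPM and then 215, 123 and 160 CPM (-1.03 ± 0.25, edgeR adjusted p = 0.000354). LOV1 and ZAR1 did not overlap between groups. Without the 10 libraries LOV1 was still called, and RPP8 (-0.92) and ZAR1 (-0.96) were not.

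Members that lie side by side did not always move together. CHS3 and CSA1 are divergent TIR-NLR neighbours on chromosome 5, at 5916862 to 5923494 on the plus strand and 5908834 to 5913317 on the minus strand, and their proteins act as a pair. CHS3 had 48.7, 74.8 and 48.3 CPM at T0 and 80.5, 118 and 85.9 CPM at 0.5 h (0.73 ± 0.26, edgeR adjusted p = 0.0237). CSA1 had 25, 27.1 and 22.9 CPM and then 12.2, 18.4 and 12.2 CPM (-0.81 ± 0.26, edgeR adjusted p = 0.00993). The groups did not overlap in either gene, the signs were opposite, and neither change reached the fold limit. With AvrRps4 at 4 h CHS3 had 0.12 and CSA1 0.13 on the log2 scale, and with AvrRpm1 at 4 h 0.42 and -0.7, with no call.

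AT4G19500 and AT4G19510, TIR-NLR genes next to each other on chromosome 4, also went apart. AT4G19510 rose at 0.5 h from 59.4, 86 and 64.7 CPM to 158, 175 and 204 CPM (1.35 ± 0.2, edgeR adjusted p = 9.03e-09). AT4G19500 had 56.3, 68.2 and 54.3 CPM at T0 and 27.3, 26.7 and 24.8 CPM at 4 h, a fall of -1.18 ± 0.24 (edgeR adjusted p = 1.47e-05). Neither was called with an effector in Col-0.

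On chromosome 1, AT1G17600 (6052936 to 6058114, minus strand), CHS1 (6054922 to 6058357, plus strand) and AT1G17615 (6059389 to 6060851, plus strand) form a neighbourhood. AT1G17600 and CHS1 rose at 0.5 h with EV in Col-0, whereas AT1G17615 had only 2 counts there against 0 at T0. AT1G17600 had 6.17, 6.7 and 6.59 CPM at T0 and 104, 85.6 and 113 CPM at 0.5 h (3.96 ± 0.49, edgeR adjusted p = 2.25e-11), and CHS1, a short TIR gene whose mutant is chilling sensitive, had 2.25, 3.14 and 2.72 CPM and then 27.8, 23.1 and 13.1 CPM (2.98 ± 0.41, edgeR adjusted p = 1.36e-09). The exons of these genes overlap by 2310 bases, 90.5% of CHS1 and 48.3% of AT1G17600, so reads of the pair cannot be told apart without strand. With AvrRps4 at 4 h CHS1 had 3.78, 6.22 and 4.5 CPM in Col-0 and 0.783, 1.07 and 0.951 CPM in helperless, without overlap (-2.34 ± 0.44, edgeR adjusted p = 0.000189). AT1G17615, which does not share those exons, had 7.59, 8.67 and 8.45 CPM in Col-0 with AvrRps4 at 8 h, 2.35, 4.27 and 12.4 CPM in nrg1, 0.566, 0 and 1.54 CPM in adr1, and 0.0934, 0 and 0 CPM in helperless. It summed to 338 counts in Col-0 and 2 in helperless, a ratio of 181.0 with a 95% counting interval of 49.6 to 1500.0. In Col-0 at that time it rose over EV by 5.18 ± 0.86 (edgeR adjusted p = 8.64e-06).

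Larger clusters of related genes showed the same mixture. In the chromosome 4 cluster that holds SNC1, RPP4, RPP5 and RLM3, only SNC1 rose at 0.5 h with EV. RPP4 and RPP5, which recognise downy mildew isolates, were still near T0 then: RPP4 had 149, 129 and 135 CPM at T0 and 177, 174 and 105 CPM at 0.5 h, which overlap. At 4 h RPP4 had 291, 265 and 275 CPM, above every T0 value (1.01 ± 0.36, edgeR adjusted p = 0.012). RPP5 rose with AvrRpt2 at 4 h, from 230, 201 and 228 CPM with EV to 572, 428 and 422 CPM (1.11 ± 0.29, edgeR adjusted p = 0.0132). With AvrRps4 at 8 h RPP4 and RPP5 were lower in helperless than in Col-0, with log2 differences of -1.18 ± 0.37 and -1.19 ± 0.29, as was SNC1. Only 54.9% of the 50-base windows in RPP5 exons, 70.9% in RPP4 and 78.8% in SNC1 occur once in the genome, and the part of shared reads in this common movement was not tested.

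In the RPP1 cluster on chromosome 3, AT3G44630 had 85.3, 66.6 and 88.4 CPM at T0, 590, 581 and 403 CPM at 0.5 h, 80.9, 47.9 and 85.4 CPM at 4 h with EV and 331, 293 and 259 CPM at 4 h with AvrRpt2. It thus rose early, was back within the T0 range apart from 1 lower replicate, and rose again with the effector (2.04 ± 0.31, edgeR adjusted p = 4.5e-06). AT3G44400 had 6.89, 5.53 and 7.23 CPM at T0, 122, 125 and 82.4 CPM at 0.5 h and 180, 131 and 133 CPM with AvrRpt2 at 4 h, against 40, 23.9 and 36.5 CPM with EV. RPP1 and AT2G14080, which lies outside the cluster, rose by 1.06 and 1.03 on the log2 scale at 0.5 h, and AT3G44670 did not pass the test (0.5, edgeR adjusted p = 0.101). The neighbours AT5G18360 and AT5G18370 on chromosome 5 differed. AT5G18360 went from 4.21, 3.5 and 5.08 CPM at T0 to 84.4, 71.8 and 52.5 CPM at 0.5 h, with no overlap (4.03, edgeR adjusted p = 4.11e-16). AT5G18370 had 6.31, 5.96 and 5.8 CPM and then 7.93, 8.2 and 5.83 CPM (0.28, edgeR adjusted p = 0.487).

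The short TIR genes AT1G72920, TIR and AT1G72940 lie together on chromosome 1, and all 3 rose at 0.5 h with EV. AT1G72940 had 17.3, 6.21 and 15.4 CPM at T0 and 52.2, 138 and 54.7 CPM at 0.5 h (2.66, edgeR adjusted p = 1.91e-05). With AvrRps4 at 8 h AT1G72920 and AT1G72940 were lower in helperless than in Col-0, with log2 differences of -2.5 and -2.23, beside -1.36 for TIR. Among the remaining members AT4G12010 kept a raised level through the EV course, with 10.2, 8.73 and 8.38 CPM at T0, 27.9, 26.6 and 30.2 CPM at 0.5 h and 24.6, 22.7 and 23.1 CPM at 8 h, and did not pass the test with AvrRpt2 at 4 h (edgeR adjusted p = 0.999). RPP8, whose alleles include virus resistance genes, had 127, 115 and 123 CPM at T0 and 182, 164 and 136 CPM at 0.5 h, and was not called (0.4, edgeR adjusted p = 0.197).

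Of 28 genes known as partners, guarded proteins or signalling components of such receptors, 18 rose in Col-0 within 0.5 h of EV (14.0% of all genes did) and BIR3 fell (8.6%). At 4 h over EV 1 rose with AvrRps4 (0.528% of all genes), 4 with AvrRpt2 (2.31%) and 5 with AvrRpm1 (8.06%). PAD4, the lipase-like partner of EDS1, rose with each (2.32 with AvrRps4, edgeR adjusted p = 0.00796, and 3.31 with AvrRpt2, edgeR adjusted p = 1.25e-05), and EDS1 rose with AvrRpt2 (2.51, edgeR adjusted p = 0.000395). With AvrRps4, EDS1 and PAD4 were the 2 of these genes lower in helperless than in Col-0 at 4 h (-2.21, edgeR adjusted p = 0.00266, and -3.78, edgeR adjusted p = 7.78e-07; 1.25% of all genes were lower), and 8 of the 28 were lower at 8 h (6.91%), among them MPK4 of the cascade that SUMM2 monitors.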

How the data were processed

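RNA from leaf discs was sequenced as 50-base single-end reads after oligo(dT) selection, per the labels' protocols. The authors deposited 1 table of raw counts per gene for 305 libraries. FastQC 0.11.7, Trimmomatic 0.36, HISAT2 2.1.0, featureCounts of Subread and TAIR10 are named in the submitters' processing notes, and the strand setting is not given in the sources used here. All library columns were used.

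Libraries with the same group and replicate number were summed (149 of 156 replicates had 2 libraries). The labels do not say whether these are repeat runs. Genes were kept with edgeR's filterByExpr by group (19687 of 25320) and scaled by TMM (factors 0.6549 to 1.497), and 1 quasi-likelihood model of 52 group means was fitted (edgeR 4.0.16, limma 3.58.1, R 4.3.3), with Benjamini-Hochberg adjustment over all genes tested. A call needed an adjusted p under 0.05 and a log2 fold change of at least 1 in size. Counts at an unadjusted p under 0.05 are not calls and are given without the share of all genes. CPM values use the TMM-scaled totals. Groups with at most 3 counts got a bound or a counting interval, which covers counting error only. DESeq2 1.42.0 was an alternative.

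The members, the classes and the list of 28 partners were chosen with earlier results of these data known. The 24 comparisons between times, effectors and mutants, and the alternatives for adr1 and helperless against Col-0 with AvrRps4, were added after seeing the data. Replicate values are printed for 22 members. These are the 3 members per class with the largest called change for each effector in Col-0 at 4 h, the 3 largest rises and falls per time with EV, the neighbour sets, SNC1 and ZAR1. Further members printed with replicate values, such as WRR4, TIR, LOV1, RFL1 and AT5G11250, were chosen after their values were seen. A CC-NLR gene is included in the counts and medians and is otherwise not reported here. The fits were tested on simulated data. The replicate number was left out of the model, since the labels give it no meaning. Same-numbered samples correlated over 0.1 in all 3 pairs in 11 of 24 comparisons, among them all 6 of a mutant with Col-0 (0.2 to 0.59), and a fit with the number as a block was run as an alternative.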

Additional observations from a re-analysis of the deposited data

How the results depend on the processing

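Of 37 counts of members called, 14 moved by over 1.5 times, or to or from 0, without replicate 2. With only the groups compared 7 did, and with the first library only 6 did. In each of the other alternatives 0 to 4 counts moved. AvrRps4 against EV in Col-0 at 4 h (3 members) gave 1 with DESeq2, 1 with RLE scaling, 0 with only the groups compared, 5 with the first library only, and 0 to 5 leaving out each replicate in turn. With the first library only, AvrRps4 at 8 h in Col-0 gave 4, AvrRpt2 at 8 h 13, AvrRpm1 in adr1 at 4 h 4, and adr1 against Col-0 with AvrRps4 6 at 4 h and 0 at 8 h. With only the groups compared, AvrRpm1 at 4 h gave 9 in nrg1, 10 in adr1 and 10 in helperless, and with AvrRps4 adr1 gave 0 at 4 h and 0 at 8 h against Col-0, and helperless 0 at 4 h. Without the 10 libraries that go against their labels, AvrRps4 in Col-0 at 8 h gave 6 in place of 12.

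Leaving out each replicate in turn gave, in Col-0, 0 to 18 for AvrRpt2 at 4 h, 4 to 15 for AvrRps4 at 8 h and 7 to 15 for AvrRpm1 at 8 h. At 4 h it gave 0 to 4 for AvrRps4 in nrg1, 1 to 16, 2 to 11 and 5 to 16 for AvrRpt2 in nrg1, adr1 and helperless, and 5 to 17, 8 to 16 and 10 to 18 for AvrRpm1. Against Col-0 with AvrRps4 it gave 0 to 9 at 4 h and 0 to 2 at 8 h in adr1, and 0 to 13 at 4 h and 13 to 17 at 8 h in helperless. For EV against T0 in Col-0 it gave 23 to 26, 14 to 15 and 15 to 19 at 0.5, 4 and 8 h. The losses were most frequent without replicate 2, where 161 of 294 single-gene calls were lost. The cause was not tested.

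The replicate block kept all 294 single-gene calls and moved 0 of 37 counts by over 1.5 times; 12 of 24 comparisons had every sample correlating best with its own number. Against EV in Col-0 it moved the AvrRpt2 count at 4 h from 19 to 21 members. DESeq2 kept 285 calls, RLE scaling 285 and no filter 286, with none of those lost reversed. Sequencing depth limits AT1G17615 and RLM1, which had at most 3 counts in several groups, and near copies limit RPP1, RPP4, RPP5 and AT3G44670.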
